A study of Mus musculus with 7 samples.

Results

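The expression of 10 genes that mark the formation, repair or denervation of skeletal muscle was examined in subcutaneous pancreatic ductal adenocarcinoma (PDA) tumors, among 38026 genes of the deposited table. The members were the myogenic regulatory factors *Myod1*, *Myog*, *Myf5* and *Myf6*, the paired-box genes *Pax3* and *Pax7*, the transcription factor gene *Mef2c*, the acetylcholine receptor subunit genes *Chrna1* and *Chrng*, and the adhesion molecule gene *Ncam1*. They were taken by name, and they were chosen by an earlier result of the same comparison: transcripts of mature muscle were high in the tumors with edited *Krt19* and, to a lesser degree, in 1 control tumor. The question is whether genes of satellite cells, myoblasts or denervated fibers accompany those mature transcripts. Because that comparison raised the question, the values of the members in it are a description.

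All 7 tumors grew under the skin of C57BL/6 mice after injection of a PDA cell line. The line came from a pancreatic tumor of a genetically engineered mouse, in which Cre under the *Pdx1* promoter activates the tumor-forming alleles, a mutant *Trp53* among them. The cells had been transduced to express Cas9 with a scrambled guide RNA (sgScramble, controls, libraries 1 to 4) or with a guide RNA against *Krt19* (sgKRT19, libraries 5, 6 and 8). Every tumor was harvested 2 weeks after inoculation, without treatment, from mice that, by the study's methods, were bought at 6 wk of age and housed for 2 wk. The labels do not say whether the cells were a clone or a polyclonal line, or which *Krt19* guide they carried, so differences between the cell lines and the edit cannot be told apart.

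In textbook myogenesis, satellite cells are the muscle stem cells that lie beside the fiber and are marked by *Pax7*. On activation they express *Myf5* and *Myod1*, and *Myog* then accompanies the exit from the cell cycle and the fusion of myoblasts into fibers, while *Myf6* is the member of the family kept in adult fibers. A fiber that loses its nerve makes *Myog* and the subunits of the acetylcholine receptor again along its whole length, including the gamma subunit of the fetal receptor encoded by *Chrng*.

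The myogenic regulatory factors bind E-boxes, with the letters CANNTG, and the promoters of 3 members that were higher in sgKRT19 tumors are printed here because genes of the acetylcholine receptor are known targets of these factors. The sequences, from RefSeq on GRCm38.p6, run from 250 bases before to 50 bases after the annotated start, 5′ to 3′ on the strand of the gene, and every E-box is in capitals. *Myog* lies at chr1:134289754-134290053 on the plus strand, *Chrna1* at chr2:73580289-73580588 on the minus strand and *Chrng* at chr1:87205561-87205860 on the plus strand.
Myog: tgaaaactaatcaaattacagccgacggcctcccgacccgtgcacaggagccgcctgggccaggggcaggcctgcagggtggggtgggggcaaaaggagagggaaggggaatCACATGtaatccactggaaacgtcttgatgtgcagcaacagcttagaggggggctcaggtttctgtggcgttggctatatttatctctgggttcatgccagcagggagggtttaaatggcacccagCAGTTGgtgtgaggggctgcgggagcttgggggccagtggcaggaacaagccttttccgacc
Chrna1: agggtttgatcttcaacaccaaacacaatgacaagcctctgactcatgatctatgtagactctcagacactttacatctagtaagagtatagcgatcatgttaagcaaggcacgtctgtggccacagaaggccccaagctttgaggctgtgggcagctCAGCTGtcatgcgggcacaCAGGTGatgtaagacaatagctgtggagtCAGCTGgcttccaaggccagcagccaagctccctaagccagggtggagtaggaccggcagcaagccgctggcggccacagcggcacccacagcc
Chrng: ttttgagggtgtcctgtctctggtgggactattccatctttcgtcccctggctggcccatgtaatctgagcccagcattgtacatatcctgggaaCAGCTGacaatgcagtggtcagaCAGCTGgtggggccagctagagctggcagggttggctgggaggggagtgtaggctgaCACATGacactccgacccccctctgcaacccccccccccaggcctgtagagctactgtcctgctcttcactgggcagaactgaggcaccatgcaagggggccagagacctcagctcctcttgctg
The *Myog* promoter held 2 E-boxes, and those of *Chrna1* and *Chrng* held 3 each. In the latter pair 2 of the 3 had the letters CAGCTG, a form that myogenic factors bind well. The motif reads the same on both strands. Of 32817 promoters of 300 bases, 72.3% held at least 1 E-box and 39.7% at least 2, and 16.3% held at least 1 CAGCTG and 1.90% at least 2. Of the 10 members 6 had an entry, the windows of *Pax7* and *Myf5* held 0 E-boxes, and the 3 windows of *Mef2c* held 2, 0 and 1. These matches describe letters in a window and do not show binding.

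Values are normalized read counts: the reads of a gene, scaled by its library's size factor. The ± sign gives the SD among a group's libraries, and intervals are exact 95% Poisson intervals that cover counting error only. The libraries held 40781199 to 44972100 reads, so that 3 reads, taken as the floor of detection, equal a value of 2.74 to 3.47. *Krt19* was 17841 to 27618 in the sgScramble libraries and 1606 to 2470 in the sgKRT19 libraries. Keratin and cadherin genes of the epithelium were present in every tumor: *Krt8* was at least 46646 and *Cdh1* at least 24121. Of 10 epithelial markers 5 were called higher in sgKRT19 tumors and 0 lower, where 17.9% of all tested genes were called higher. *Krt7*, *Epcam*, *Cldn4*, *Cldn7* and *Sox9* were not called. *Krt8* and *Krt18* had the highest values and weigh most in the sum of the list. Summed epithelial markers were 136238 to 186403 in sgScramble and 278489 to 285640 in sgKRT19 tumors. Summed smooth muscle markers were 7430 to 9423 and 13568 to 20649. That sum includes *Des*, which skeletal muscle also makes and which alone was 59.3 to 753 and 4419 to 6602. Of 7 tested smooth muscle markers 2 were called higher, *Des* and *Acta2*, and 1 lower, against 17.9% and 16.0% of all tested genes. Mature muscle was followed by the sum of 22 contractile and metabolic genes. It was 1115, 1153 and 1150 in sgScramble 1, 2 and 4, 4555 in sgScramble 3, and 44321, 31703 and 42940.4 in sgKRT19 5, 6 and 8. All 22 were called higher in sgKRT19 tumors, 12 of which could pass the filter only with those libraries. Of 8 heart markers, *Myh6*, *Nppa*, *Nppb*, *Myl7* and *Pln* were at most 6.301 in any library, *Tnni3* and *Tnnt2* were present in both groups and not called, and *Ryr2* was called higher, at 20.8 ± 5.95 against 8.67 ± 1.25. *Ryr2*, too, could pass the filter only with the sgKRT19 libraries. In a bulk tumor, more muscle fibers and more RNA per fiber cannot be told apart.

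Of the 10 members, 8 reached a value of 10 in 3 or more libraries and entered the test across 21322 genes, limma on log2(value + 1) with an adjusted p under 0.05. *Myf5* and *Pax7* did not. limma called 5 members higher in sgKRT19 tumors, *Myod1*, *Myog*, *Myf6*, *Chrna1* and *Chrng*, where 17.9% of all tested genes were called higher. It called *Pax3* and *Ncam1* lower, where 16.0% of tested genes were called lower, and it did not call *Mef2c*. Among the 8, the same 5 and the same 2 did not overlap between the groups, against 21.7% of tested genes for sgKRT19 higher and 19.3% for sgKRT19 lower. Of the 5, all but *Chrna1* could pass the filter only with the sgKRT19 libraries and so had to differ, and nothing is read from these counts or from the median. The median log2 fold change of the 8 was 2.61, or 1.30 for all 10 without the filter, beside 0.01 over all tested genes.

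**Figure D1:**
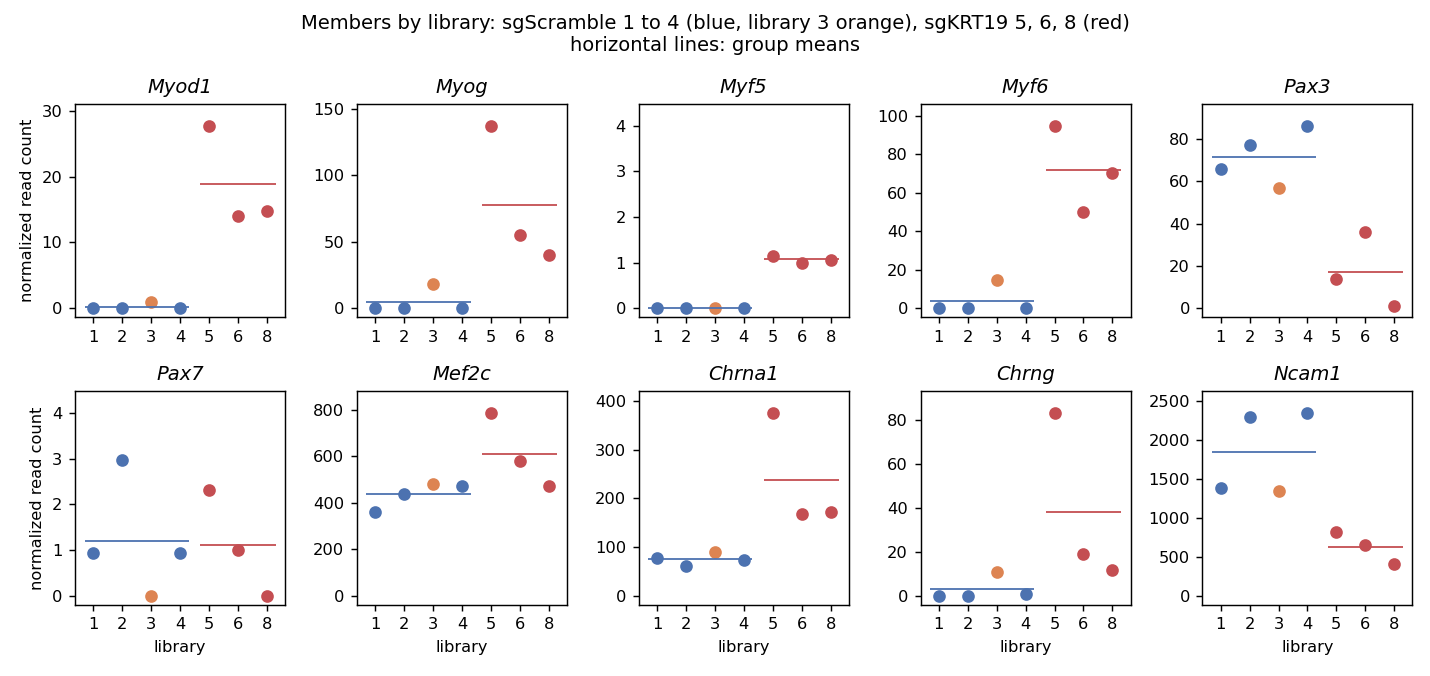
Normalized read count (vertical axis, linear from 0) of each member in sgScramble 1 to 4 (blue, with library 3 in orange) and sgKRT19 5, 6 and 8 (red), with lines at the group means. *Myog* and *Myf6* are higher in all 3 sgKRT19 libraries than in sgScramble 3, *Chrng* is at a like level in sgKRT19 8 and sgScramble 3, *Pax7* and *Myf5* stay at 3 reads or fewer, and *Pax3* and *Ncam1* are lower in sgKRT19.

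Among the satellite cell members, *Pax7* (chromosome 4, 139737062 to 139833528, GRCm38, minus strand) was not detectable as a muscle signal at this depth. Its reads were 1, 3, 0 and 1 in sgScramble 1 to 4 and 2, 1 and 0 in sgKRT19 5, 6 and 8. The groups overlapped and every library lay at or under the floor, so no fold is given. The upper bound of the Poisson interval in sgKRT19 8, the library with 0 reads, was a value of 3.87.

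*Myf5*, the earliest of the 4 myogenic factors to act in the embryo, was also at the floor. It had 0 reads in each sgScramble library and 1 read in each sgKRT19 library. Its neighbor *Myf6* lies 6719 bases away on chromosome 10 and was read in all 3 sgKRT19 tumors, so the pair at one locus differed in detection.

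*Pax3*, a regulator of embryonic muscle precursors, neural crest and melanocytes, went the other way. It measured 65.9, 77.1, 56.6 and 86.3 in sgScramble 1 to 4 (mean 71.5 ± 12.9, n = 4) and 13.9, 36.0 and 1.05 in sgKRT19 5, 6 and 8 (mean 17.0 ± 17.7, n = 3). The groups did not overlap, with sgKRT19 below and library 8 at 1 read, and sgScramble 3 was the lowest of its group. The log2 fold change was −2.78 (SE 0.763). It was −3.70 without sgKRT19 replicate 6 and −1.61 without sgKRT19 replicate 8.

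The genes *Eya1* and *Six4*, whose products act with *Pax3* in muscle precursors, were lower as well. *Eya1* was 61.6 ± 12.8 in sgScramble and 6.85 ± 2.18 in sgKRT19 tumors, and *Six4* 157 ± 44.9 and 33.4 ± 11.1 (n = 4 and n = 3). Both were called, and for neither did the groups overlap. Of the melanocyte markers measured, *Tyr*, *Mlana* and *Slc45a2* were at or below 1.83 in every library, 0 of the 2 genes that could be tested were called, and the summed list was 218 to 288 in sgScramble and 274 to 340 in sgKRT19 tumors.

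*Myod1* (chromosome 7, 46376474 to 46379099, GRCm38, plus strand), the determination factor of activated satellite cells and myoblasts, was low but detected in sgKRT19 tumors. It was 0 in sgScramble 1, 2 and 4, 0.913 in sgScramble 3, a single read, and 27.7, 14.0 and 14.7 in sgKRT19 5, 6 and 8, which rest on 24, 14 and 14 reads. The counting intervals of the 3 sgKRT19 values overlapped, at 17.8 to 41.3, 7.66 to 23.5 and 8.04 to 24.7. All sgScramble libraries were under the floor, and the sgKRT19 mean of 18.8 ± 7.74 was at least 6.68-fold higher than the mean floor of the sgScramble libraries.

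*Myog* (chromosome 1, 134289989 to 134292548, GRCm38, plus strand), the factor of terminal differentiation and of denervated fibers, was 0 in sgScramble 1, 2 and 4 and 18.3 in sgScramble 3. It was 138, 55.01 and 39.9 in sgKRT19 5, 6 and 8. sgKRT19 5 stood above the other sgKRT19 libraries beyond counting error, with an interval of 114 to 165 against 41.4 to 71.6 and 28.2 to 54.8. The interval of sgScramble 3, 11.2 to 28.2, ended just under that of sgKRT19 8. The log2 fold change was 5.03 (SE 0.987), and 6.09 without sgScramble replicate 3. DESeq2 on the reads gave 4.06 and did not call it (DESeq2 adjusted p = 0.161).

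*Myf6* (chromosome 10, 107492853 to 107494737, GRCm38, minus strand), the factor of the adult fiber, was 0 in sgScramble 1, 2 and 4, 14.6 in sgScramble 3, and 94.8, 50.01 and 70.4 in sgKRT19 5, 6 and 8. The sgKRT19 mean was 71.7 ± 22.4 (n = 3), close to that of *Myog* at 77.5 ± 52.6 but with a smaller spread among the 3 libraries, a difference that was not tested. The log2 fold change of *Myf6* was 5.15 (SE 0.893), and 6.14 without sgScramble replicate 3. DESeq2 gave 4.27 and did not call it (DESeq2 adjusted p = 0.111).

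*Mef2c*, which encodes a partner of the myogenic factors and is also expressed in endothelium and myeloid cells, did not separate the groups. It was 362, 439.7, 481 and 471 in sgScramble 1 to 4 and 787, 579 and 470.5 in sgKRT19 5, 6 and 8, so sgKRT19 8 fell within the sgScramble range. The log2 fold change was 0.46 (SE 0.183) and 0.26 without sgKRT19 replicate 5. *Mef2c* was called by DESeq2 (DESeq2 adjusted p = 0.0493) and by limma without sgKRT19 replicate 8 (limma adjusted p = 0.0342). Summed endothelial markers were 5373 to 7358 in sgScramble and 7733 to 9884 in sgKRT19 tumors, and 5 of 10 were called higher. Summed macrophage markers were 33691 to 46318 and 43727 to 64060, with 4 of 10 called higher and 1 lower. Of all tested genes, 17.9% were called higher and 16.0% lower. The part of endothelial and macrophage cells in the *Mef2c* values was not tested. Of the other MEF2 genes, *Mef2a* was called lower, at 2051 ± 237 and 1562 ± 160, and *Mef2b* and *Mef2d* were not called.

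*Chrna1* (chromosome 2, 73563215 to 73580338, GRCm38, minus strand), the ligand-binding subunit of the muscle acetylcholine receptor, had a base level in every tumor. It was 78.0, 60.3, 89.5 and 74.2 in sgScramble 1 to 4 and 376, 168 and 172 in sgKRT19 5, 6 and 8. The groups did not overlap. sgScramble 3 was the highest control, but its interval of 72.7 to 109 held the values of sgScramble 1 and 4. The log2 fold change was 1.55 (SE 0.287), and 1.18 without sgKRT19 replicate 5. *Myog*, *Myf6* and *Chrng*, by contrast, had at most 1 read in sgScramble 1, 2 and 4.

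*Chrng* (chromosome 1, 87204657 to 87212694, GRCm38, plus strand) was 0, 0, 10.96 and 0.927 in sgScramble 1 to 4 and 83.2, 19.0 and 11.6 in sgKRT19 5, 6 and 8. sgKRT19 8 and sgScramble 3 differed by less than counting error, at 11 and 12 reads. sgKRT19 5 held 72 reads, with an interval of 65.1 to 105 that cleared every other library. The log2 fold change was 3.66 (SE 0.92), and 4.47 without sgScramble replicate 3. The call rested on sgKRT19 5, since limma without it gave 2.85 and an adjusted p of 0.0618, and DESeq2 on all libraries did not call it (DESeq2 adjusted p = 0.087).

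*Ncam1*, an adhesion molecule of satellite cells and denervated fibers that neural, NK and some epithelial cells also make, was lower in sgKRT19 tumors. It was 1391, 2296, 1351 and 2353 in sgScramble 1 to 4 and 817, 648 and 409.6 in sgKRT19 5, 6 and 8, a log2 fold change of −1.57 (SE 0.267). The 2 groups did not overlap. sgScramble 3 had the lowest value of its group, but its counting interval of 1283 to 1421 overlapped that of sgScramble 1, 1322 to 1464. *Ncam1* was thus not raised in either place where the mature muscle transcripts were high. Over such a base level, a small part from muscle would not show. Summed NK cell markers were 532 to 829 in sgScramble and 3271 to 3983 in sgKRT19 tumors, and summed Schwann cell markers 3661 to 4319 and 4310 to 5104. Of 8 tested NK markers 6 were called higher, and of 8 tested Schwann cell markers 2 were higher and 1 lower. Of all tested genes, 17.9% were called higher and 16.0% lower, and nothing is read from these counts. The part of NK and Schwann cells in the *Ncam1* values was not tested. Exons of *Ncam1* overlap *Gm11149* on the opposite strand over 4.81% of their bases. No other member has an exon overlap in the annotation.

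Per kilobase of exon, 5 members lay above the rest in sgKRT19 tumors. *Ncam1* at 72.1 ± 23.6, *Myf6* at 56.8 ± 17.8, *Chrna1* at 54.4 ± 27.1, *Myog* at 51.8 ± 35.2 and *Mef2c* at 39.0 ± 10.2 normalized reads per kb did not differ from their neighbors beyond the spread. *Myod1* at 10.1 ± 4.16, *Chrng* at 9.11 ± 9.47 and *Pax3* at 2.74 ± 2.86 came next, and *Chrng* overlapped both of the others. Last, *Myf5* and *Pax7* were at 0.513 and 0.188. In sgScramble tumors *Ncam1* at 213 ± 63.6 led, followed by *Mef2c* at 27.9 ± 3.43, *Chrna1* at 17.2 ± 2.75 and *Pax3* at 11.6 ± 2.09 per kb.

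Wider gene lists were described in the same comparison, where 17.9% of all tested genes were called higher and 16.0% lower. Of 12 tested genes of myoblast differentiation and fusion, limma called 10 higher and 0 lower, with a median log2 fold change of 3.71. Of the 12, 7 could pass the filter only with the sgKRT19 libraries, so the count and the median support nothing. *Myh8* and *Myh3*, the perinatal and embryonic myosins that regenerating fibers make, were 428 ± 87.3 and 117 ± 52.5 in sgKRT19 tumors (n = 3). In the controls they were at most 0.929 in sgScramble 1, 2 and 4 and were 45.7 and 7.31 in sgScramble 3. The fusogen gene *Mymk* did not pass the filter and had 50.9, 22.0 and 6.301 in sgKRT19 5, 6 and 8, against at most 2.74 in sgScramble. *Des*, the intermediate filament of muscle, was 5501 ± 1092 and, in sgScramble 3, 753. *Tnnt2* and *Stac3* were not called. Without any 1 of the sgKRT19 libraries the count was 6, since genes found in those libraries alone then miss the filter of 3 libraries.

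The satellite cell list did not move one way. Of 13 tested genes 3 were called higher and 4 lower, with a median log2 fold change of −0.06, against the same background of 17.9% and 16.0%. *Cdh15*, the cadherin of satellite cells and myoblasts that the fusion list also holds, was 62.4, 32.0 and 19.95 in sgKRT19 tumors and 1.86 to 9.13 in sgScramble tumors. *Chrdl2* was 30.7 ± 7.44 and 5.85 ± 1.09. Both *Cdh15* and *Chrdl2* could pass the filter only with the sgKRT19 libraries and so had to differ, and nothing is read from their calls. The third gene called higher was *Spry1*. Those called lower were *Megf10*, at 11.02 ± 0.530 against 57.0 ± 2.89 in sgScramble, *Tenm4*, *Hey1* and *Vcam1*. Many genes of this list are also made by other cells of a tumor. Without sgKRT19 replicate 6 or 8 the list had 4 calls in place of 7.

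Of 13 tested genes of denervation and the end plate, 4 were called higher and 2 lower, against 17.9% and 16.0% of all genes, with a median log2 fold change of 0.13. Of the 4, *Trim63*, *Chrnd* and *Scn4a* could pass the filter only with the sgKRT19 libraries. *Trim63*, a ubiquitin ligase of muscle atrophy, was 142, 86.0 and 323 in sgKRT19 5, 6 and 8, 21.9 in sgScramble 3 and 0 in the other sgScramble libraries. *Chrnd*, the delta subunit gene, lies just before *Chrng* on the same strand and was 54.3, 26.0 and 12.6 in sgKRT19 tumors and 5.48 in sgScramble 3, the same order of libraries as *Chrng*. *Chrne*, the subunit of the adult receptor, was singled out after its values were seen and was at 4.62, 3.001 and 5.25 in sgKRT19 5, 6 and 8, close to the floor. *Scn4a*, the adult sodium channel, was 45.9 ± 2.50 and 4.16 ± 4.53, and *Colq* was also called higher. *Chrnb1* and *Lrp4* were called lower. *Runx1*, *Gadd45a*, *Hdac4* and *Fbxo32*, which denervated muscle makes and many other cells do too, were not called.

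Among 17 tested partners and inhibitors of the myogenic factors, 3 were called higher and 6 lower (17.9% and 16.0% of all genes), with a median log2 fold change of −0.16. Those called higher were *Vgll2*, a cofactor of muscle fibers, at 15.2 ± 5.07 against 1.17 ± 0.459 in sgScramble, *Msc*, a repressor found in activated B cells and muscle precursors, at 47.7 ± 17.4 against 13.0 ± 5.43, and *Id1*, an inhibitor of bHLH factors, at 1896 ± 335 against 1095 ± 239. Of these, *Vgll2* could pass the filter only with the sgKRT19 libraries and so had to differ, and nothing is read from its call. *Twist1*, which restrains myogenic factors and is a mesenchymal regulator, was lower at 513 ± 96.9 against 1055 ± 25.8. The E protein gene *Tcf12* was called lower and *Tcf3* and *Tcf4*, which encode other partners of the myogenic factors, were not called. *Eya1*, *Six4* and *Mef2a* were also among the genes called lower.

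**Figure D2:**
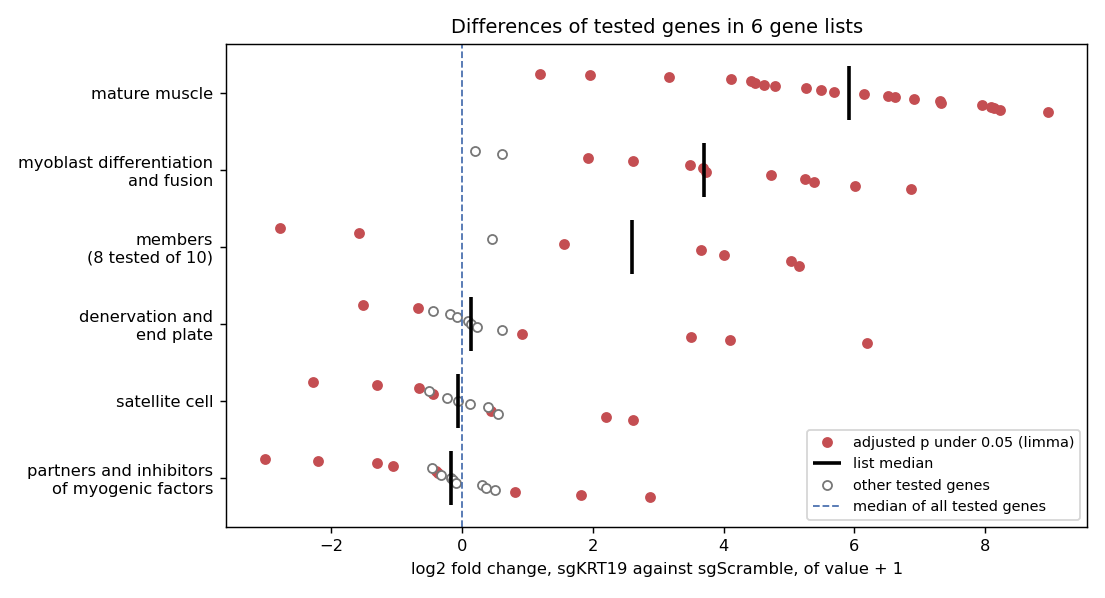
Log2 fold change of value + 1 (horizontal axis, sgKRT19 against sgScramble) of every tested gene in 6 lists, 1 point per gene, red where limma called it, with a black line at the list median and a dashed line at the median of all tested genes. Mature muscle (median 5.92) and myoblast differentiation and fusion (3.71) lie to the right, while the satellite cell (−0.06) and denervation lists (0.13) lie around the dashed line with a few genes far out.

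To ask whether the members kept a fixed proportion to mature fibers, each was divided by the mature muscle sum of its own library, for sgKRT19 and for sgScramble 3. Values are normalized reads per 1000 of that sum. *Myog* was at 3.10, 1.74 and 0.929 in sgKRT19 5, 6 and 8 and at 4.01 in sgScramble 3, whose counting interval of 2.45 to 6.19 held the value of sgKRT19 5 but not those of 6 and 8. *Myf6* was at 2.14, 1.58 and 1.64 in the sgKRT19 libraries and 3.21 (1.83 to 5.21) in sgScramble 3. *Chrng* was at 1.88, 0.599 and 0.269, and at 2.41 (1.24 to 4.203) in sgScramble 3.

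The level of sgScramble 3 was also set against the sgKRT19 mean. Over the 22 mature genes it was 10.1% of the sgKRT19 mean at the median, with a range from 5.17% to 42.1%. The top was *Eno3*, at 545 in sgScramble 3 and 530, 548 and 594 in sgScramble 1, 2 and 4. *Casq1* and *Tnni2* also had a base level in sgScramble 1, 2 and 4, of 117 to 164 and 186 to 256. A base level raises the share, so the top of the range is no measure for the members. The share was 23.6% for *Myog*, 20.4% for *Myf6* and 28.9% for *Chrng*, all above that median. *Chrnd* stood at 17.7%, *Myh8*, *Trim63* and *Mymk* at 10.7%, 11.9% and 10.4%, and *Myh3* at 6.24%. These shares are given without their counting error. For *Myod1* the share of 4.85% rests on 1 read. With 1 library and 12 to 20 reads behind each of the 3 members, these proportions are a description.

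**Figure D3:**
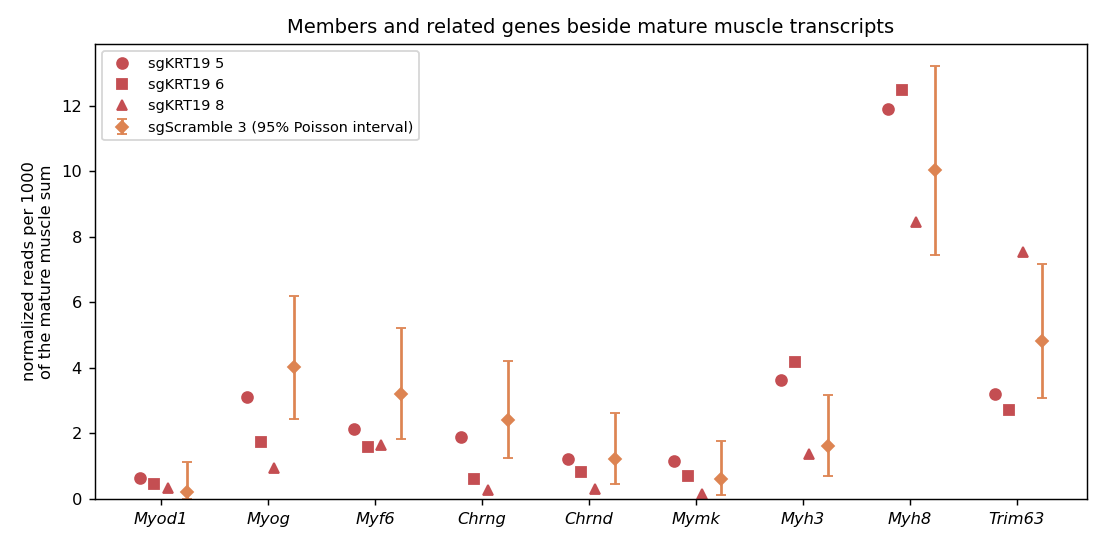
Normalized reads per 1000 of the mature muscle sum (vertical axis, linear from 0) for 4 members and 5 related genes in sgKRT19 5, 6 and 8 (red) and sgScramble 3 (orange, with exact 95% Poisson intervals). *Myog* and *Chrng* spread widely among the sgKRT19 libraries, from 0.929 to 3.10 and from 0.269 to 1.88, and sgScramble 3 lies at 4.01 and 2.41.

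The sgKRT19 libraries also differed among themselves in this proportion. sgKRT19 5 and 8 had nearly the same mature muscle sum, and every one of the 8 tested members was higher in library 5, where 53.6% of all tested genes were. Other lists ran the same way, with macrophage sums of 64060 and 43727 and smooth muscle sums of 20649 and 13630 in libraries 5 and 8, and their part was not tested. The ratio of library 5 to library 8 was 3.45 for *Myog*, 7.21 for *Chrng*, 2.18 for *Chrna1* and 1.35 for *Myf6*. Among the fusion genes it was 3.29 for *Myl4*, 3.13 for *Cdh15* and 2.73 for *Myh3*, and 10 of 12 were higher in library 5. Mature genes were split, with 14 of 22 higher in library 5, and *Myh4* and *Ckm* had ratios of 0.293 and 0.662. The median log2 ratio was 1.06 for the members, 0.51 for the fusion genes and 0.13 for the mature genes, beside 0.04 for all tested genes.

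**Figure D4:**
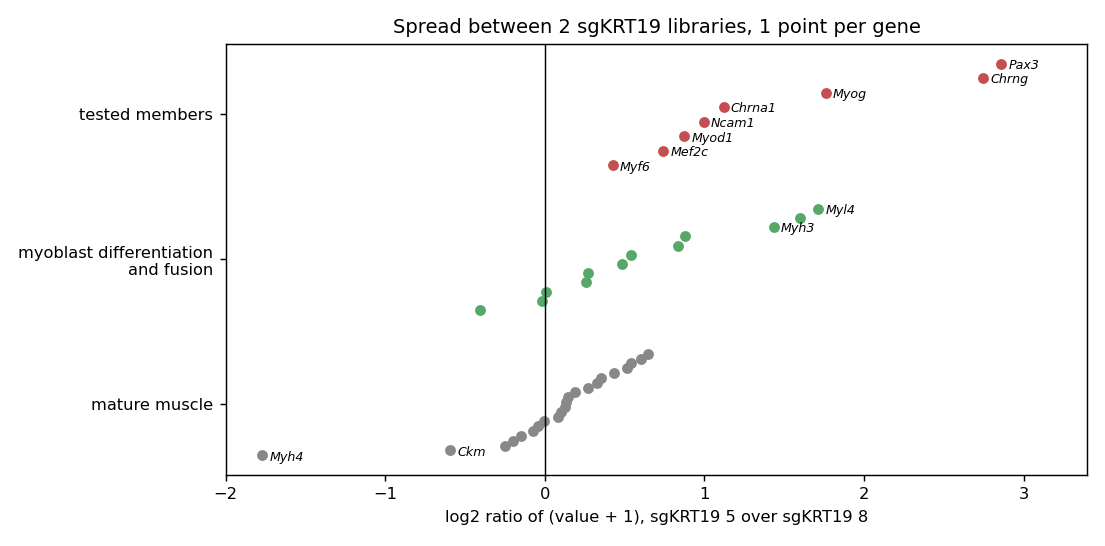
Log2 ratio of value + 1 in sgKRT19 5 over sgKRT19 8 (horizontal axis), 1 point per gene for tested members, myoblast genes and mature muscle genes. All 8 members lie to the right of 0, up to 2.86 for *Pax3*, whereas the mature genes center near 0 and *Myh4* lies at −1.77.

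The genes whose pattern was most like that of each member were sought by Pearson's r of log2(value + 1) over the 7 libraries, in 13461 genes whose mean value was 50 or more. The libraries share the group difference and the muscle content, so r is high throughout and is a description. *Myf6* was most like *Actn3*, *Art1* and *Sln* (r of 0.999 each), and *Myog* most like *Sln*, *Lyrm1* and *Actn3* (0.995, 0.993 and 0.992). *Actn3* encodes a Z-disc protein of fast fibers and *Sln* a regulator of the muscle calcium pump. *Myod1* was most like *Hrc*, *Il15* and *Itpripl1* (0.996 each). *Chrna1* was nearest to *Adam23*, *Cst3* and *Cklf*, and *Chrng* to *Tnfrsf4*, *Cdc42ep3* and *Fam76a*. *Pax3* was nearest to *Nmt1*, *Fhdc1* and *Larp7*, *Ncam1* to *Ppfibp1*, *Dcaf4* and *Pxdn*, and *Mef2c* to *Cnpy3*, *Ano10* and *Camk2n2*, with r of 0.961 to 0.995 over these 9 genes.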

How the data were processed

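Polyadenylated or total RNA was sequenced from 7 tumors, 4 sgScramble and 3 sgKRT19. The labels name polyA RNA, whereas the methods of the study name a stranded total RNA kit. The authors deposited 1 table whose values are a signal, gene read counts divided by a size factor for each library, and the submitters' processing notes name mm10. The aligner, counter and annotation are not given in the sources used here. Whole reads were recovered for 100% of values up to 1000 reads in each library (tolerance 0.1 read). In sgKRT19 6, 1 read is worth so nearly 1 that reads and values rounded to whole numbers cannot be told apart in this way. Of the identifiers, 97.55% have the same version in GENCODE M21 (GRCm38), which gave positions and exon lengths.

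Genes that reached a value of 10 in 3 or more libraries were tested with limma 3.58.1 on log2(value + 1), with the group as the only term, trended eBayes and Benjamini-Hochberg adjustment. The log2 fold changes of low genes depend on the pseudocount: that of *Myog* was 5.77 with 0.5 and 3.31 with 5. Against DESeq2 the main values went both ways. They were larger for *Myog* (5.03 against 4.06) and *Myf6* (5.15 against 4.27) and smaller for *Myod1* (4.01 against 6.03). edgeR 4.0.16 and DESeq2 1.42.0 were run on the recovered reads as alternatives, with other scalings, pseudocounts, filters and each library left out. The procedure was tested on simulated data. The chi-square statistic between replicates was at least 12.6 per degree of freedom, so none was a repeat sequencing of the same library. It cannot tell separate tumors from separate preparations of the same tumor. The p-values set the difference between the groups against the spread between these libraries. Where 2 rows share a symbol, the identifier found in M21 was used. Named genes are the members, up to 6 of each list by the size of a called log2 fold change and then by mean, and the 3 genes most like each member. *Mymk*, *Chrne*, *Lbx1* and some genes that were not called were added to these. The members and lists were chosen with earlier results of these data known. *Calcr*, *Tyrp1* and *Oca2* were not analysed here, and 1 gene that the rule names is not reported here. The labels give no sequencing batch.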

Additional observations from a re-analysis of the deposited data

Results flagged for a closer look

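In the group of 4 sgScramble libraries, 24 results (the 10 members and the summed values of 14 gene lists) were examined for a single library set far apart from the other 3, relative to their full spread (Dixon's criterion). Chance gives about 1 in 20, and 6 were found, 5 of them in sgScramble 3. The genes were chosen in part because muscle transcripts are high in that library, so these 5 restate the choice and are not read against chance. In sgScramble 3 these were *Myog* at 18.3, *Myf6* at 14.6, *Chrng* at 10.96, the mature muscle sum at 4555, and *Myod1* at 0.913, which is 1 read and below the floor of 3 reads. In sgScramble 1 it was the B cell sum at 1131, most of it from *Ighm*. No cause was tested for any of them.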

How the results depend on the processing

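Of 245 values recomputed, 226 kept their direction, side of the threshold or size, and 0 changed direction. DESeq2 called 3 members higher in place of 5, losing *Myog*, *Myf6* and *Chrng* and adding *Mef2c*. The cause was not tested. edgeR called the same 5 and 2 members as limma. The median log2 fold change of the members was 1.30 without a filter, which adds *Myf5* and *Pax7*, and 1.55 with a mean of at least 10, which drops *Myod1*. With 1 library left out it ran from 1.18 to 2.94, the members called higher from 3 (without sgKRT19 5) to 5, the fusion genes called from 6 to 10 and the satellite cell genes called from 4 to 8. Without any 1 sgKRT19 library *Myod1* misses the filter. *Myf6* per 1000 of the mature muscle sum was 1.80 times as high in sgScramble 3 as in sgKRT19, 2.58 times relative to *Ckm* alone and 2.33 times with the mean sum of the other sgScramble libraries taken off, a setting chosen after seeing the data. Scaling by library size shifted the median log2 fold change of all genes to −0.21 and the share of genes called to 10.3% higher and 26.8% lower, and turned no member. No paired analysis was possible because the groups share no replicate number. Depth limits *Pax7* and *Myf5*, at 0 to 3 reads, and *Myod1* and *Chrng*, at 11 to 72 reads in the libraries above the floor.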
